A study of Arabidopsis thaliana with 6 samples.

Results

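The aquaporins of Arabidopsis thaliana are the genes described here: 35 loci, taken by gene identifier, made up of 13 PIP, 10 TIP, 9 NIP and 3 SIP genes. Of these, 33 are among the 22426 loci of the deposited table, and TIP1;3 (AT4G01470) and NIP4;1 (AT5G37810), both known from pollen, are not listed there. RNA was sequenced from whole seedlings 2 weeks old, kept at 22 °C in days of 16 hours of light with nights of 8 hours, in 3 libraries labelled WT and 3 labelled NCBP mutant. NCBP belongs to the eIF4E-type proteins that bind the cap of mRNA, and the mutant and wild-type libraries are compared for transcript levels. The labels give no allele, ecotype or hour of harvest, and do not say whether the replicates were separate sowings, so a p-value here reflects only how far these libraries scatter, which may be technical.

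Aquaporins are membrane channels that let water, and in some members small uncharged solutes, pass along a gradient. Plasma membrane intrinsic proteins (PIPs) carry water across the plasma membrane, and tonoplast intrinsic proteins (TIPs) across the membrane of the vacuole. The NOD26-like proteins (NIPs) are best known for boric acid, arsenite and other solutes, and the small basic proteins (SIPs) lie in the endoplasmic reticulum. In seedlings PIPs and TIPs carry much of the water flow through root and leaf cells, and their transcripts are known to follow drought, salt, cold, light and the clock.

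Each channel has a pair of short loops that meet in the pore, and in most members each loop carries an asparagine-proline-alanine signature. The coding stretch around the first of these is shown for members on which the results turn, because it carries that signature, which marks the family and in which some NIP and SIP genes differ. Each is 45 bases of coding sequence from RefSeq TAIR10.1, written on the gene's own strand, with the 3 signature codons in capitals.
PIP1;2: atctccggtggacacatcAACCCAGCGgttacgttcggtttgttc
PIP2;1: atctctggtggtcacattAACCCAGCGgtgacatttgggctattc
PIP2;2: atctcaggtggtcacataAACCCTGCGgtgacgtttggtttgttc
PIP2;3: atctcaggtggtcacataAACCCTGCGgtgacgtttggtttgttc
TIP1;2: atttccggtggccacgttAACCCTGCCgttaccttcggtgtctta
TIP2;1: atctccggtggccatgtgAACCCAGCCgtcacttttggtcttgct
NIP2;1: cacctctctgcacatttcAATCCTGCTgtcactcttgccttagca
NIP5;1: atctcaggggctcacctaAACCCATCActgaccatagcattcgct
SIP1;1: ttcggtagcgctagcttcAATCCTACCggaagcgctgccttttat

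The asparagine codon (AAC or AAT) and the proline codon (CCN) were present at this loop in all 35 genes. An alanine codon (GCN) followed in 30 genes, the 23 PIP and TIP genes and 7 of the NIP genes. In the remaining 5 genes, 2 NIP and all 3 SIP genes, the third codon was another one. The last PIP windows shown, of neighbouring genes, had 0 differing bases, and these genes were the 1 pair of members with at least 90% identity of coding sequence, at 94.8%. Of their stretches of 100 coding bases, 18.8% occurred in both genes, and no other member shared such a stretch with another. The sources used here do not say to which gene such reads were assigned, so the split between them is uncertain.

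Levels are in FPKM, the unit of the deposited table, in which fragments are divided by gene length and by library total. Library totals were not given and the absolute depth is unknown. Ratios between the lowest values placed the depth of the libraries between 1.09 and 1.31 times that of wild-type replicate 1, and the summed FPKM lay between 970383 and 1040255. The targeted transcript, NCBP (AT5G18110), was present in the mutant libraries at 57.9, 59.2 and 55.8 FPKM, whereas wild type had 97.4, 100.4 and 97.9 FPKM, with no overlap. Seed marker genes, 7 of 10 listed, had a summed 0.959 to 3.58 FPKM in wild type and 0.367 to 1.24 FPKM in the mutant. Flower and pollen genes, 8 of 12 listed, had a summed 3.68 to 5.67 FPKM in wild type and 4.20 to 5.07 FPKM in the mutant. Most of that sum came from PI, at 0.944 to 3.42 FPKM over the 6 libraries, and SEP3, at 1.74 to 3.49 FPKM, while AP1, AP3 and VGD1 were listed at 0 in 4, 2 and 5 of them.

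The aquaporins ranged from near 0 FPKM up to TIP1;2, which ranked 50 by mean FPKM among the 22426 listed loci. In wild type TIP1;2, at 2293 ± 119 FPKM, and PIP1;2, at 1530.1 ± 23.1 FPKM (SD, n = 3), stood at the top, each with all libraries above those of the next gene. TIP2;1 followed at 1234 ± 138 FPKM and PIP2;1 at 1104 ± 36.3 FPKM, and the libraries of this pair overlapped. TIP1;1, TIP2;2, PIP1;3, PIP1;1, PIP2;7 and PIP2;2 lay between 483 and 635 FPKM, and each overlapped the next in that order. PIP2;6, PIP1;5 and PIP1;4 came after them at 342, 267 and 214 FPKM with no overlap between neighbours. SIP1;1 was the most abundant gene outside the PIPs and TIPs, at 79.8 FPKM, and the NIPs reached a mean of at most 20.5 FPKM. A mean of 100 FPKM over the 6 libraries was reached by 13 of the 33 listed members, all of them PIPs or TIPs.

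**Figure D1:**
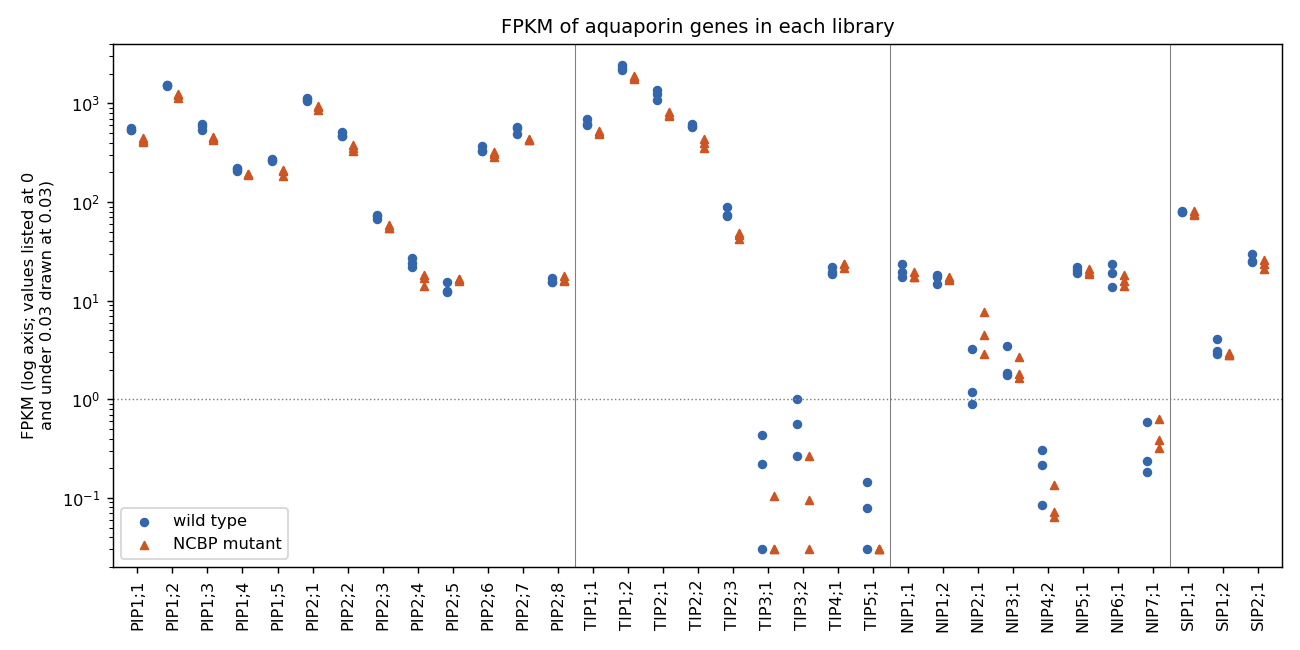
FPKM of the 33 listed aquaporin genes on a log axis, with 3 wild-type libraries (circles) and 3 NCBP mutant libraries (triangles) for each gene, and lines between the PIP, TIP, NIP and SIP genes. Values listed at 0 or under 0.03 are drawn at 0.03, and the dotted line marks the minimum mean of 1 FPKM. The triangles lie below the circles for the most abundant PIPs and TIPs, while NIPs and SIPs overlap.

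Most of the abundant PIP and TIP transcripts fell in the mutant, and no NIP or SIP transcript passed the test. Of the 28 aquaporins tested, those with a mean of at least 1 FPKM over the 6 libraries, 14 fell, 0 rose and 14 did not pass an adjusted p of 0.05 in limma's test on log2(FPKM + 1). Across all 18064 genes tested, 8.44% fell and 6.27% rose by the same rule, and the aquaporins that fell were 9 of 13 tested PIPs and 5 of 6 tested TIPs. In either direction 14.7% of all genes passed, so 0 calls among so few NIP and SIP genes lie near that share. All mutant libraries lay below all wild-type libraries for 16 of the 28, against 19.1% of all genes tested, and above them for 1 PIP2 gene, against 16.4%. The median log2 fold change was -0.24 over the 28 aquaporins and -0.00 over all genes tested. At an unadjusted p under 0.05 there were 19 of the 28 aquaporins, against 30.9% of all genes tested. Leaving out mutant replicate 1 left 10 that fell, against 3.92% of all genes tested, and leaving out mutant replicate 2 left 11, against 4.47%. Tested against a minimum change of 1.2-fold, 1 of the 28 passed, TIP2;3, which fell (limma adjusted p = 0.0269). By that test 0.531% of all genes fell and 1.09% passed in either direction.

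**Figure D2:**
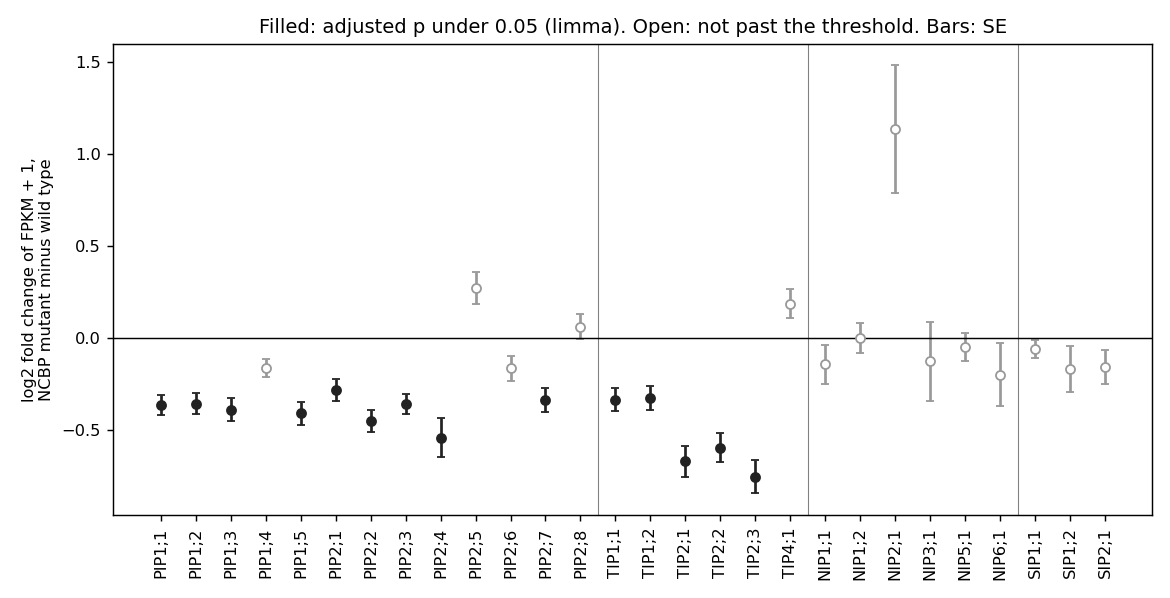
Log2 fold change of FPKM + 1, mutant minus wild type, with its SE, for the 28 tested aquaporins in order of subfamily. Filled points have a limma adjusted p under 0.05: 9 PIPs and 5 TIPs, all below 0.

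The family as a whole took a smaller part of the measured transcripts in the mutant. Summed over the 33 listed genes, the aquaporins had 11167, 10907 and 10259 FPKM in wild type, against 7922, 8444 and 8518 FPKM in the mutant. That was 1.07, 1.07 and 1.06% of the summed FPKM of the wild-type libraries and 0.809, 0.847 and 0.853% of that of the mutant libraries. All mutant values lay below all wild-type values on both scales. PIP1 genes went from 3135 ± 84.9 to 2452 ± 105 FPKM, PIP2 genes from 2596 ± 102 to 2099 ± 87.2 FPKM and TIP genes from 4855 ± 304 to 3563 ± 136 FPKM, with no overlap between groups in any of these sums. NIP genes had 80.8 ± 2.96 and 78.0 ± 6.19 FPKM, and SIP genes 109.5 ± 1.61 and 102.9 ± 5.88 FPKM, with overlap in both. As a share of the family, TIP2 genes went from 17.7 ± 0.694 to 14.6 ± 0.252% of the summed FPKM, with all mutant libraries below. PIP1 genes held 29.1 ± 0.745 and 29.6 ± 0.227%, and TIP1 genes 27.2 ± 0.782 and 28.1 ± 0.363%, with overlap in both. PIP2 genes, at 24.1 ± 0.173 and 25.3 ± 0.244%, were above in all mutant libraries. So were NIP genes, at 0.751 ± 0.045 and 0.941 ± 0.0757%, and SIP genes, at 1.02 ± 0.0448 and 1.24 ± 0.0384%. TIP genes as a whole, at 45.0 ± 0.999 and 43.0 ± 0.430%, were below. A share rises wherever the sum of a group fell by less than that of the family. The 6 most abundant members together held 68.4% of the family in wild type and 68.1% in the mutant. These sums and shares are descriptions and were not tested. In RNA from whole seedlings, fewer cells of a type and less RNA per cell cannot be told apart.

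**Figure D3:**
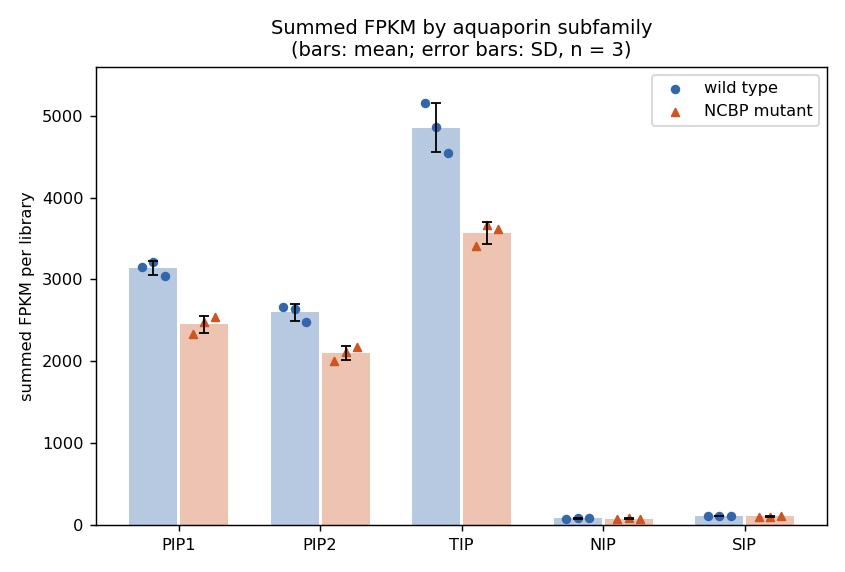
Summed FPKM per library of the PIP1, PIP2, TIP, NIP and SIP genes, with bars at the mean of 3 libraries and error bars of 1 SD. PIP1, PIP2 and TIP sums are lower in every mutant library than in any wild-type library, and NIP and SIP sums overlap.

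Among the PIP1 genes, whose products reach the plasma membrane together with PIP2 partners, 4 of 5 fell and by similar amounts. PIP1;2 (AT2G45960), the leading PIP of the seedling and known for a part in leaf and root water flow, had 1533, 1552 and 1506 FPKM in wild type, against 1130.0, 1210 and 1246 FPKM in the mutant. Its log2 fold change was -0.36 (SE 0.06, limma adjusted p = 0.00677). PIP1;1 (AT3G61430), its closest relative at 87.6% of coding bases, had 540.1, 559 and 538 FPKM and then 403, 420.3 and 447 FPKM, a change of -0.37 (adjusted p = 0.00466). PIP1;3 (AT1G01620) went from 587, 617 and 534 FPKM to 428, 451 and 445 FPKM, a change of -0.39 (adjusted p = 0.00636). PIP1;5 (AT4G23400) had 275, 266 and 259 FPKM in wild type, against 185, 206 and 212 FPKM in the mutant, a change of -0.41 (adjusted p = 0.00477). In each of these genes the groups were apart, and the mutant level was between 75.3 and 78.1% of the wild-type level. PIP1;4 (AT4G00430), known to pass water and hydrogen peroxide, had 221, 215 and 205 FPKM against 190.1, 194 and 189 FPKM, with no overlap but a smaller difference of -0.16 (SE 0.05) that missed the threshold (adjusted p = 0.0565).

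Of the 8 PIP2 genes, which encode the stronger water channels of the plasma membrane, 5 fell and 3 did not pass. PIP2;1 (AT3G53420), a main root and leaf water channel that the kinase OST1 phosphorylates in guard cells, had 1137, 1111 and 1065 FPKM in wild type, against 860, 914 and 951 FPKM in the mutant. Its change was -0.28 (SE 0.06, limma adjusted p = 0.0170). The call was lost without mutant replicate 1 (-0.24, adjusted p = 0.0716) or 2 (-0.29, adjusted p = 0.0685). It was also lost against the 1.2-fold minimum, and the other alternatives gave 0.00428 to 0.0716. PIP2;2 (AT2G37170), known for water transport in roots, had 471, 507 and 471 FPKM and then 332, 353 and 375 FPKM, a change of -0.45 (adjusted p = 0.00309). Its near copy PIP2;3 (AT2G37180, RD28), first named for its response to desiccation, had 71.7, 67.9 and 74.0 FPKM and then 54.1, 57.8 and 53.9 FPKM, a change of -0.36 (adjusted p = 0.00505). The ratio of the former to the latter was 6.80 ± 0.580 in wild type and 6.40 ± 0.484 in the mutant, with overlap. Since reads can be shared between them, the pair is best read as a sum, which also fell, by 0.44 on the log2 scale (adjusted p = 0.00267).

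PIP2;7 (AT4G35100) had 564, 572 and 489 FPKM in wild type, against a narrow 425, 432 and 427 FPKM in the mutant. Its change was -0.34 (SE 0.07, limma adjusted p = 0.0133), and without mutant replicate 1 it was -0.33 (adjusted p = 0.0515). The gene did not pass against the 1.2-fold minimum, and the other alternatives gave 0.00179 to 0.0515. PIP2;4 (AT5G60660), known mainly from roots, was low in whole seedlings and had the largest fitted fall of the tested PIPs, from 24.0, 27.3 and 22.0 FPKM to 14.2, 16.96 and 18.3 FPKM, a change of -0.54 (SE 0.11, adjusted p = 0.0126). PIP2;6 (AT2G39010), with 370.3, 326 and 331 FPKM against 287, 309 and 318 FPKM, did not overlap between groups but missed the threshold (-0.17, adjusted p = 0.127). PIP2;8 (AT2G16850) had 15.9 ± 0.886 and 16.7 ± 0.990 FPKM, with overlap (0.06, adjusted p = 0.598).

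PIP2;5 (AT3G54820) lay on the other side of 0. It is known as a PIP whose transcript rises in cold and drought while most others fall. Its FPKM was 15.3, 12.4 and 12.4 in wild type and 16.5, 15.7 and 16.5 in the mutant, so each mutant library lay above each wild-type library. The log2 difference was 0.27 (SE 0.09) and did not pass (limma adjusted p = 0.0738). It passed after each library was scaled to the same sum (0.0486), after organelle genes were also left out (0.0474) and without wild-type replicate 1 (0.0202). It did not pass against the 1.2-fold minimum, and over the other alternatives the value ran from 0.0202 to 0.189.

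The TIP genes held both the most abundant aquaporin and the largest falls. TIP1;2 (AT3G26520), a vacuolar channel found through much of the plant, had 2426, 2259 and 2195 FPKM in wild type, against 1761, 1880 and 1833 FPKM in the mutant. TIP1;1 (AT2G36830, gamma-TIP), a marker of the large central vacuole, had 688, 614 and 603 FPKM and then 484, 501 and 522 FPKM. Both changes were -0.33 (SE 0.06 each, limma adjusted p = 0.0130 and 0.0125). These calls were lost without mutant replicate 1 (0.0630 and 0.0535) or 2 (0.0509 and 0.0513). The changes were then -0.30 and -0.31 without replicate 1, and -0.35 and -0.33 without replicate 2. Neither gene passed against the 1.2-fold minimum, and the other alternatives gave 0.00204 to 0.0630 and 0.00174 to 0.0535.

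All 3 TIP2 genes, which are known to pass ammonia as well as water, fell by more on the fitted scale than either TIP1 gene. TIP2;1 (AT3G16240, delta-TIP), known from shoots and vascular tissue, had 1359, 1256 and 1086 FPKM in wild type, against 742, 814 and 762 FPKM in the mutant. The change of -0.67 (SE 0.09, limma adjusted p = 0.00256) put the mutant at 62.6% of the wild-type level. TIP2;2 (AT4G17340), known mainly from roots, had 591, 622 and 571 FPKM and then 354, 393 and 435 FPKM, a change of -0.60 (adjusted p = 0.00273). TIP2;3 (AT5G47450), a further root TIP, had 71.9, 89.6 and 73.7 FPKM and then 42.4, 48.5 and 46.7 FPKM, a change of -0.76 (adjusted p = 0.00190), which is the largest fall of the 28 tested aquaporins. The sum of the TIP2 genes was 0.649, 0.685 and 0.619 times that of the listed TIP1 genes in the wild-type libraries and 0.507, 0.528 and 0.528 times in the mutant libraries, with no overlap. That difference between TIP1 and TIP2 is given as a description and was not tested. In TAIR10.1, 10.09% of the exonic length of delta-TIP is shared with AT3G16250 and 3.87% with AT3G03265, both on the opposite strand, and no source used here states whether the libraries kept strand. AT3G16250 had 119.2 ± 5.94 FPKM in wild type, against 126.4 ± 1.92 FPKM in the mutant (adjusted p = 0.302).

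TIP4;1 (AT2G25810) was the tested TIP that did not pass, with 18.4, 21.9 and 19.6 FPKM in wild type, against 23.8, 23.6 and 21.2 FPKM in the mutant (0.19, limma adjusted p = 0.148), and the groups overlapped. The seed TIPs, TIP3;1 (AT1G73190) and TIP3;2 (AT1G17810), known from the storage vacuoles of embryos, were at most 0.430 and 1.01 FPKM in any library and were not tested. Pollen TIP5;1 (AT3G47440) was listed at 0.0799, 0.144 and 0 FPKM in wild type and at 0 in each mutant library.

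None of the 6 tested NIP genes passed. Of all genes tested 14.7% passed in either direction, so 0 of 6 is near that share. NIP5;1 (AT4G10380), the channel through which roots take up boric acid, had 18.9, 20.3 and 22.1 FPKM in wild type, against 19.4, 21.1 and 18.7 FPKM in the mutant (-0.05, SE 0.08, limma adjusted p = 0.704). NIP6;1 (AT1G80760), which moves boron towards young leaves, had 23.5, 19.2 and 13.7 FPKM and then 14.1, 18.01 and 15.8 FPKM. Arsenite-permeable NIP1;1 (AT4G19030) had 20.1 ± 3.17 and 18.02 ± 1.204 FPKM, and NIP1;2 (AT4G18910) had 16.7 ± 1.71 and 16.7 ± 0.507 FPKM. NIP3;1 (AT1G31885) was near the filter, at 2.37 ± 0.984 and 2.04 ± 0.574 FPKM. The groups overlapped for all 5 of these genes. NIP4;2 (AT5G37820) and NIP7;1 (AT3G06100), known from pollen and anthers, were at most 0.309 and 0.627 FPKM in any library and were not tested.

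NIP2;1 (AT2G34390), a lactic acid channel known for its rise in roots short of oxygen, had the largest fitted log2 difference of the 28 tested aquaporins, and also the largest SE. Its FPKM was 0.901, 1.18 and 3.22 in wild type and 4.50, 7.67 and 2.85 in the mutant, so that wild-type replicate 3 lay above mutant replicate 3. The log2 difference of 1.13 (SE 0.35) did not pass (limma adjusted p = 0.0614). It passed with array weights (0.0466) and without wild-type replicate 3 (0.0254) or mutant replicate 3 (0.0459). The adjusted p was 0.466 against the 1.2-fold minimum and 0.0254 to 0.171 over the other alternatives. With a pseudocount of 5 the difference was 0.55. In TAIR10.1, 59.7% of the exonic length of this gene is shared with AT2G08660, a locus that is not listed in the deposited table, and 2.14% with AT2G34380, both on the opposite strand, so reads of those loci may be included. Across the family, 7 of the 35 members had exons that overlap another locus, with 11 such overlaps, all on the opposite strand.

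None of the 3 SIP genes passed, with fitted log2 differences between -0.17 and -0.06. Beside the 14.7% of all genes tested that passed in either direction, 0 of 3 is near that share. SIP1;1 (AT3G04090), the most abundant of them, had 80.2, 79.1 and 80.1 FPKM in wild type, against 73.7, 75.3 and 80.6 FPKM in the mutant (-0.06, SE 0.05, limma adjusted p = 0.467). SIP2;1 (AT3G56950) had 26.3 ± 2.65 and 23.5 ± 2.28 FPKM, and SIP1;2 (AT5G18290) had 3.36 ± 0.667 and 2.85 ± 0.103 FPKM, with adjusted p-values of 0.276 and 0.403. The groups overlapped in all 3. In TAIR10.1, 11.4% of the exonic length of AT3G56950 is shared with AT3G56940 and 1.64% with AT3G08805, both on the opposite strand. AT3G56940 had 1589 ± 108.7 FPKM in wild type, against 1683 ± 32.1 FPKM in the mutant (limma adjusted p = 0.423). No source used here states whether the libraries kept strand, so reads of those loci may be included in the AT3G56950 values. Their part in those values was not tested.

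The aquaporins that fell were mostly abundant genes. Of the 13 members with a mean of at least 100 FPKM, 11 fell, and in all 13 the mutant libraries lay below the wild-type libraries, against 31.4% of all genes at that level. Of the 15 tested members below that level 3 fell, a pair of PIP2 genes and 1 TIP2 gene. In the same fit 8.44% of genes tested at any level fell, and no share was taken for genes under 100 FPKM alone. Among all 1398 genes with a mean of at least 100 FPKM, tested on their own, 23.2% fell and 9.59% rose, and 12 of the 13 aquaporins fell, PIP1;4 (adjusted p = 0.0425) being the one added. The median log2 fold change was -0.04 over those 1398 genes and -0.36 over the 13 aquaporins among them.

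**Figure D4:**
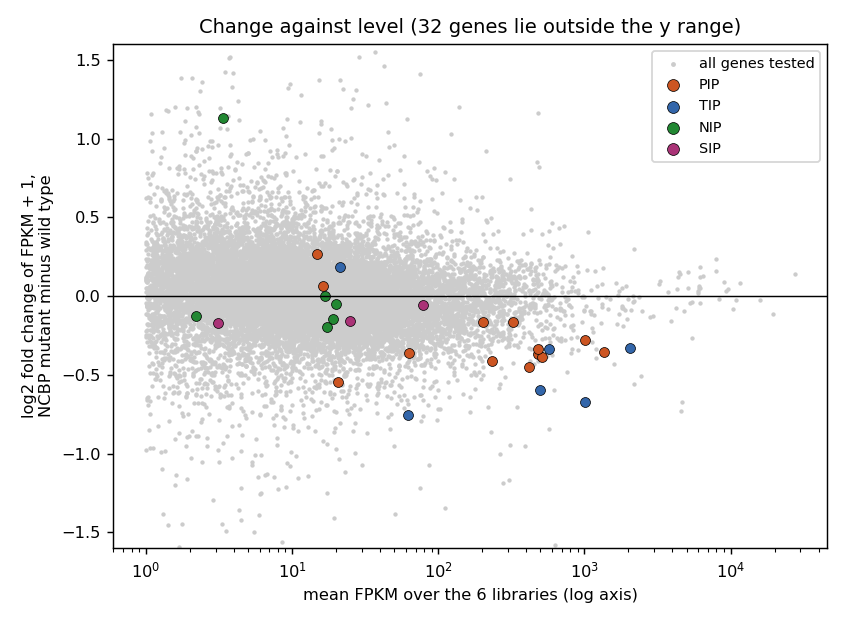
Log2 fold change of FPKM + 1, mutant minus wild type, against the mean FPKM over the 6 libraries on a log axis, for all 18064 genes tested (grey) and the 28 tested aquaporins by subfamily (colours). The 13 aquaporins at 100 FPKM or more all lie below 0, and 32 genes lie outside the drawn range of the vertical axis.

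The libraries within a group were not equal. Mutant replicate 1 was the lowest mutant library for 13 of the 14 aquaporins that fell, and wild-type replicate 3 was the lowest wild-type library for 12 of them. Wild-type replicate 3 also had the smallest summed FPKM, 970383, and mutant replicate 1 the next smallest, 979062. After each library was scaled to the same sum, 14 aquaporins fell and 1 PIP2 gene rose, while over all genes the share of calls that were higher moved from 42.6 to 53.9% and 6.09% of genes fell. Without wild-type replicate 3, 14 aquaporins still passed as lower, against 5.32% of all genes tested.

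Lists of proton pumps, of genes that handle aquaporins and of boron exporters had median log2 fold changes between -0.06 and 0.06. Their counts stand beside 8.44% of all genes tested that fell and 6.27% that rose. Of 8 tested plasma membrane proton pumps (AHA genes), 1 fell and 7 did not pass, with a median log2 fold change of 0.02. The pump that fell was AHA11 (AT5G62670), from 24.4, 24.8 and 24.1 FPKM to 17.1, 19.3 and 18.3 FPKM (limma adjusted p = 0.00507). Of 7 tested vacuolar proton pump genes 1 rose and 6 did not pass, with a median of 0.03, and the gene that rose was VHA-A (AT1G78900), the catalytic subunit of the vacuolar ATPase (0.18, adjusted p = 0.0385). Among 11 tested genes of aquaporin trafficking, turnover and phosphorylation 2 fell, and the median was -0.06. RMA2 (AT4G28270), a ubiquitin ligase of the endoplasmic reticulum, fell from 29.1, 32.1 and 31.5 FPKM to 17.2, 18.5 and 18.1 FPKM (-0.75, SE 0.06, adjusted p = 0.000433). VAMP711 (AT4G32150), a membrane fusion protein of the vacuole, fell by 0.31 on the log2 scale (adjusted p = 0.0220). Of 4 tested boron exporters (BOR genes) 0 passed at an adjusted p of 0.05, nor did any at an unadjusted p under 0.05, against 30.9% of all genes.

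Root and leaf marker genes were read in the same libraries, since several PIPs and TIPs are known mainly from roots. Of 19 tested root markers 3 rose, 1 fell and 15 did not pass, with a median log2 fold change of 0.03. Among all genes tested, 6.27% rose and 8.44% fell. PYK10 (AT3G09260), an abundant beta-glucosidase of roots and hypocotyls, fell from 1225, 1480.3 and 1378 FPKM to 931, 1088 and 1092 FPKM (-0.39, limma adjusted p = 0.0227). PER73 (AT5G67400), a root hair peroxidase, rose from 8.53, 6.60 and 7.32 FPKM to 9.81, 11.1 and 13.0 FPKM (0.53, adjusted p = 0.0192). PER44 and NRT2.1 were the others that rose, and they are named after their values were seen. Summed over the 20 listed root markers the range was 1454 to 1684 FPKM in wild type and 1150 to 1330.3 FPKM in the mutant, a sum made up mostly of PYK10. Of 8 leaf markers, RCA fell (-0.27, adjusted p = 0.0470) and 7 did not pass, and their sum was 75858 to 90737 FPKM in wild type and 82314 to 87650 FPKM in the mutant. The part of root share in the aquaporin falls was not tested.

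**Figure D5:**
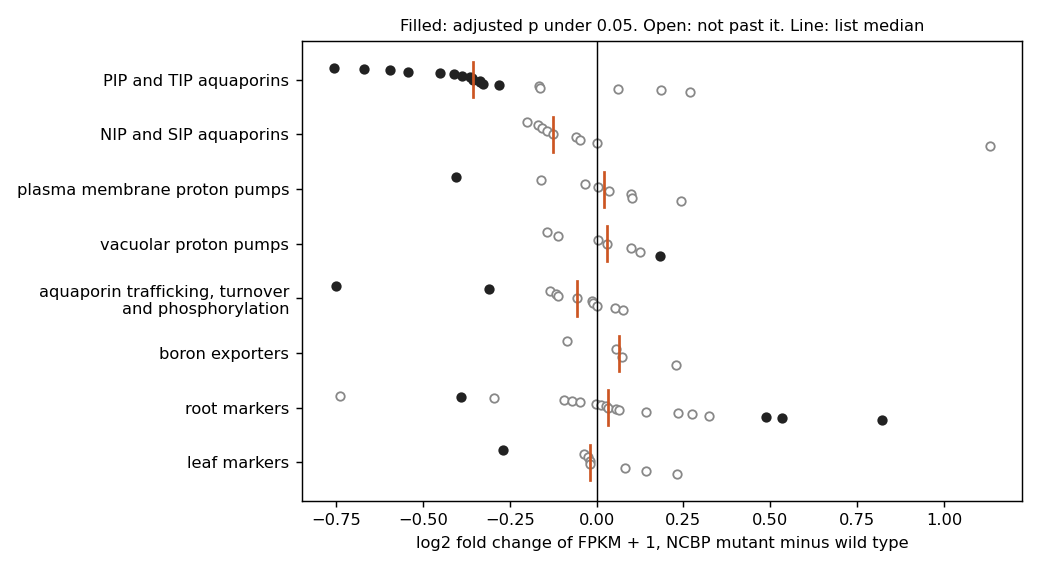
Log2 fold change of FPKM + 1, mutant minus wild type, of each tested gene in the aquaporin subfamilies and in the lists of pumps, aquaporin-handling genes, boron exporters, root markers and leaf markers. Filled points have a limma adjusted p under 0.05 and the vertical line in each row is the median of the list. The row of PIPs and TIPs lies mostly to the left of 0, with 14 filled points, while the medians of the pump, handling, boron exporter, root and leaf lists lie between -0.06 and 0.06.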

How the data were processed

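The authors deposited FPKM per locus in 1 table, with a column for each library that was matched to its sample by label. The submitters' processing notes list HISAT2 but no version of it. Not given in the sources used here are the quantification program, build, annotation, strandedness and read depth, so no coordinates are printed. A listed 0 can be a failed estimate, and intervals that need read counts cannot be given.

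Tests used log2(FPKM + 1), a scale that understates changes of low genes. Genes averaging 1 FPKM or more (18064 genes, 28 aquaporins) were tested with limma 3.58.1 in R 4.3.3, mutant against wild type without a block, with a mean trend, 2-sided, with Benjamini-Hochberg adjustment over all genes and a threshold of 0.05. Every adjusted p in the text is from limma. In both groups every tested aquaporin had a mean above 1 FPKM. In simulated data with 18064 genes, 100 genes were changed 1.25-fold and 100 were changed 1.5-fold, with noise drawn independently for each gene. Of these, 30% and 78% were recovered, with 5 false calls. In the real data 2657 genes passed, so these rates hold for the simulated setting and not for this comparison.

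Same-numbered libraries of the groups did not deviate together (correlations of 0.071, -0.072 and -0.060 across genes), so the numbers were not taken as pairs. Coding sequences came from RefSeq TAIR10.1 by locus tag, which matched all 35 members, using the transcript with the lowest accession. Of the member names, 34 are among its symbols or synonyms.

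The members and lists were chosen with earlier results of these data known. The text names all members, gives library values for those past the threshold and for the most abundant, and names list genes past the threshold, for longer counts the one with the smallest p in each direction.

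Processing was varied as follows: a pseudocount of 0.1 or 5; every locus tested, or those averaging 5 FPKM or more; TPM, median-ratio or quantile scaling, or TPM without organelle genes; a flat or a robust variance prior; array weights; the replicate number as a block; each library dropped in turn; a 1.2-fold minimum; and PIP2;2 summed with PIP2;3. A mean FPKM of at least 100 was added after the data were seen.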

Additional observations from a re-analysis of the deposited data

How the results depend on the processing

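Of the settings tried, the 14 aquaporins called lower stayed 14 under both pseudocounts, both FPKM filters set at the start, all 4 rescalings, both changes of moderation and array weights. Under these settings 5.82 to 11.4% of all genes tested fell. With a minimum fold of 1.2, 1 aquaporin and 197 genes changed, 1 aquaporin being lower, against 0.531% of all genes. The added minimum of 100 FPKM, which tests fewer genes, gave 459 genes. Leaving out each library in turn gave 10 to 15 aquaporins changed, 10 to 14 lower, 0 to 1 higher and 1307 to 1908 genes changed. Of all genes tested, 3.92 to 6.0% fell in these fits. The count of aquaporins higher was 1 with equal sums, with organelle genes left out and with array weights. The replicate block gave 12 aquaporins lower, against 6.3% of all genes tested, and 1991 genes changed in either direction. PIP2;1 (limma adjusted p = 0.0583) and TIP1;2 (0.0531) were lost. The replicate numbers are not known to pair the libraries. NIP1;2, at -0.00, changed sign to 0.0248 with equal sums, 0.0040 with median-ratio scaling, 0.0086 with quantile normalization, 0.0248 with organelle genes left out and 0.0066 with array weights, and ranged from -0.0807 to 0.0548 when libraries were left out. By the same omissions NIP3;1 ranged from -0.28 to 0.10 and NIP5;1 from -0.101 to 0.0066. The cause was not tested. NIP4;1 is not in the table, so its sum with NIP4;2 could not be made. With 3 libraries a group and no read counts, the low gene NIP2;1 (SE 0.35) was measured less precisely than the abundant PIP1;2 (SE 0.06). The SE did not follow level alone, being 0.0756 for NIP5;1, a low gene, and 0.085 for TIP2;1, an abundant one.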
